A study of Homo sapiens with 32 samples.

Results

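This comparison asked how the split of each RNA between nucleus and cytoplasm changed when IGF2BP3 was knocked out in HEK293T, a long-established cell line from human embryonic kidney. It uses 8 of the 32 libraries of the series: nuclear and cytoplasmic RNA of 2 cultures with the IGF2BP3 knockout (replicates 1 and 2) and of 2 cultures of the CRISPR control (replicates 3 and 4). Here a culture stands for the libraries that share a genotype, replicate and batch label. The labels do not say whether these came from the same cells. Control 3 and knockout 1 are labelled batch 3, and control 4 and knockout 2 batch 4. The ratio of nuclear to cytoplasmic counts was therefore compared within each batch. Ratios of controls 1 and 2, from batches 1 and 2, served to measure how well the fractions were separated, and the IGF2BP2 knockout of batches 3 and 4 as a second knockout to compare with.

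The knockout cells had received plasmids that do not integrate, carrying 3 guide RNAs against IGF2BP3 and a GFP gene. Single GFP-positive cells were grown into colonies, the colonies were screened for the protein, and 1 clone was used. The control was made in parallel with a guide RNA that has no target in mammals, and whether it is a clone or a pool is not given. No group received any other treatment. RNA was separated with a subcellular isolation kit, treated with DNase and selected for poly(A) tails, and each library gives an RNA as a share of that fraction, so the amount of an RNA in a nucleus was not measured, and fewer cells with an RNA and less RNA per cell cannot be told apart. Both knockout cultures come from the same clone, and p-values measure the spread between these cultures, which may be technical.

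IGF2BP3 belongs to a family of RNA-binding proteins, with IGF2BP1 and IGF2BP2, that hold RNA through KH and RRM domains, include readers of N6-methyladenosine and are mostly found in the cytoplasm, where they are known to affect the stability, translation and localization of mRNAs. Most mRNAs leave the nucleus through the nuclear pores soon after splicing, while some long noncoding RNAs (lncRNAs) and transcripts with unspliced introns stay behind. mRNAs of secreted and membrane proteins are translated on the endoplasmic reticulum (ER), whose membrane is continuous with the nuclear envelope, and mitochondrially encoded RNAs are made and kept inside mitochondria.

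The 8 libraries held 15992797 to 26119480 counts. Of 8 genes known from HEK293T cells, 7 were present in every library of controls 3 and 4 and IGF2BP3 knockouts 1 and 2, PAX2 at its lowest at 2.25 CPM (counts scaled to a common library total), whereas NR0B1 was at 0 to 0.0995 CPM. Among blood cell genes, HBB was at 0 and PTPRC reached at most 0.122 CPM. The targeted gene was checked first. IGF2BP3 (ENSG00000136231, chromosome 7, 23310209 to 23470467, GRCh38) measured 71.8 and 74.0 CPM in controls 3 and 4 and 39.5 and 42.6 CPM in knockouts 1 and 2 in nuclear RNA. In cytoplasmic RNA it measured 63.8, 63.8, 32.2 and 34.1 CPM in the same order. It was lower in both knockout cultures without overlap, with a log2 change of -0.96 ± 0.084 (SE) in the nucleus, -1.20 ± 0.061 in the cytoplasm and -1.18 ± 0.066 in total RNA. Its ratio was 0.013 and 0.082 in the controls and 0.26 and 0.26 in the knockouts, and the change did not pass the test (adjusted p = 0.41). The other family members were not called, with ratio changes of 0.047 for IGF2BP1 and -0.00061 for IGF2BP2 (adjusted p = 0.814 and 0.998).

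The fractions of the knockout cultures were less far apart than those of the controls. Across 14799 genes, the log2 ratio rose with the ratio in controls 1 and 2 at a slope of 1.10 in control 3 and 0.987 in control 4, but of 0.760 in IGF2BP3 knockout 1 and 0.816 in knockout 2. In the IGF2BP2 knockout the slopes were 0.616 and 0.595. The knockout change itself fell with that ratio at a slope of -0.259, -0.338 in batch 3 and -0.171 in batch 4, and the relation took up 18.6% of its variance across genes. A smooth curve (loess) through this relation was therefore removed. The fit took the curve as fixed, so the SEs and p-values below leave out its uncertainty and that of the ratios in controls 1 and 2. For genes at a log2 ratio of 2 in controls 1 and 2 the curve stood at -0.75, at a ratio of 0 at 0.054 and at a ratio of -2 at 0.25. Below, "change" is the log2 change of the ratio in the IGF2BP3 knockout after this removal unless it is called unadjusted. A gene is called higher (more nuclear) or lower (more cytoplasmic) at an adjusted p below 0.05 in edgeR's quasi-likelihood test with Benjamini-Hochberg adjustment over all 14799 genes.

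**Figure D1:**
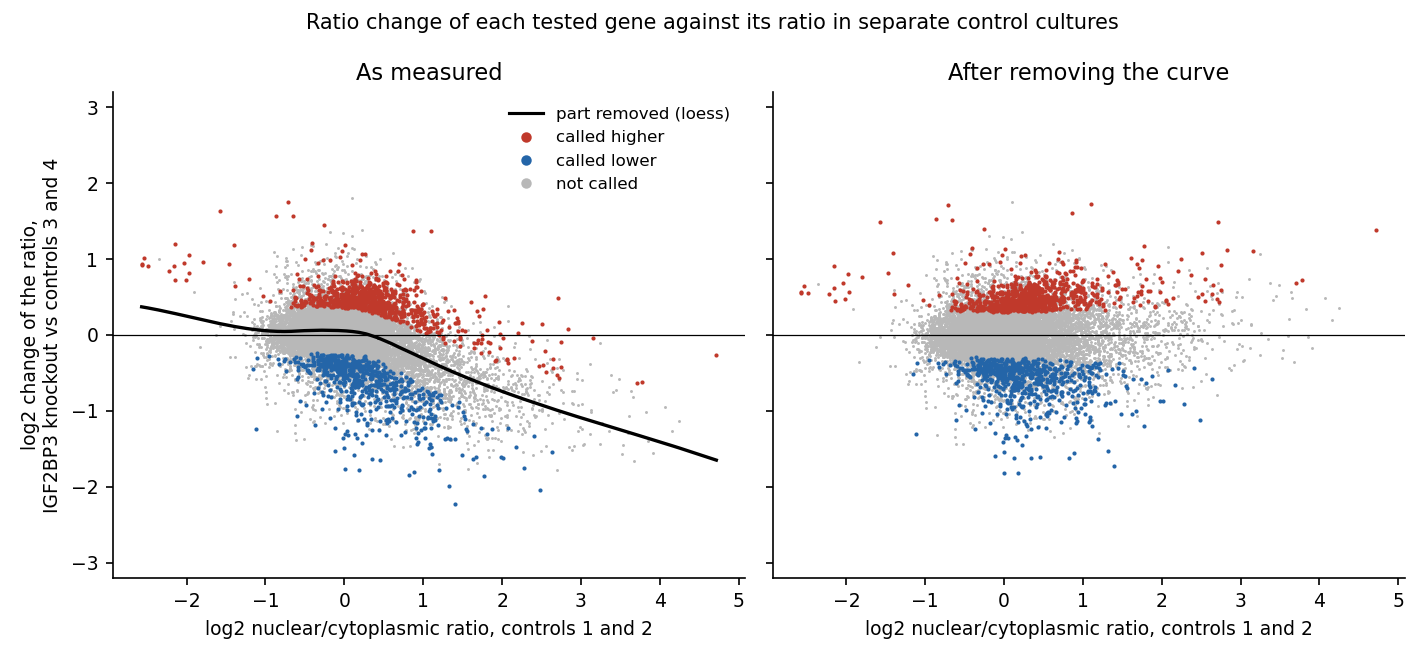
Log2 change of the nuclear to cytoplasmic ratio in the IGF2BP3 knockout (y) against the log2 ratio in controls 1 and 2 (x), 1 point a gene, before (left) and after (right) removal of the black curve. The left cloud slopes down to the right, and genes called higher (red) and lower (blue) lie mostly between ratios of -1 and 2 on the x axis.

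After the removal, 869 genes (5.87% of those tested) were called higher and 659 (4.45%) lower. Without it, 992 (6.70%) were higher and 1226 (8.28%) lower, and 1260 of the 1528 genes called after removal were also called then, while 41 had the opposite sign. The called changes were modest, with a median of 0.46 in genes called higher, of which 23 passed 1 (a doubling), and -0.54 in genes called lower, of which 62 passed -1. Both batch pairs moved the same way as the change in 868 of the 869 genes and in 659 of the 659. The calls were made from these same pairs, so this agreement is not a separate test. Among genes not called, it held in 8551 of 13271. The number of calls rests on having both pairs: without control 3 it was 371 higher and 227 lower, without control 4 341 and 216, without knockout 1 216 and 116, and without knockout 2 434 and 410. DESeq2 called 262 higher and 97 lower on the same counts.

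More of the called genes moved in cytoplasmic than in nuclear RNA, and the same held for all genes tested. Of the 869 genes called higher, cytoplasmic RNA fell in 582 and rose in 161, against 32.3% falling and 32.1% rising among all genes tested in that fraction. Nuclear RNA rose in 366 and fell in 256 of them, against 27.8% and 28.4% of all genes. Of the 659 called lower, cytoplasmic RNA rose in 399 and fell in 105, and nuclear RNA fell in 343 and rose in 82. Total RNA comes from other libraries with the same genotype, replicate and batch labels, and whether they are from the same cultures is not given. There, 416 of the 869 fell and 237 rose, and 259 of the 659 rose and 169 fell, while 30.2% of all genes rose and 30.2% fell.

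Mitochondrially encoded RNAs were the only list examined in which every tested member was called. All 15, the mRNAs and both ribosomal RNAs, were called higher, 14 of them also with nothing removed, with a median change of 0.57 (unadjusted 0.91) against 0.0064 over all tested genes. Their median ratio was -2.46 and -2.01 in controls 3 and 4 and -1.34 and -1.39 in knockouts 1 and 2. MT-CO1, which encodes a core subunit of cytochrome c oxidase, measured 4815 and 5355 CPM in controls 3 and 4 and 7604 and 8469.7 CPM in knockouts 1 and 2 in nuclear RNA, where the knockout cultures lay above both controls. Its cytoplasmic level was 15509 and 15470 CPM in controls 3 and 4 and 13550 and 13712 CPM in knockouts 1 and 2, and there the knockout lay below. Its change was 0.81 ± 0.13 (SE, adjusted p = 0.000134), from a fit with 2 culture pairs as for all changes given. MT-ATP8, an ATP synthase subunit, had a ratio of -2.88 and -2.26 in the controls and -1.34 and -1.40 in the knockouts, a change of 0.91 ± 0.12 (SE, adjusted p = 2.04e-05). MT-RNR2, the large ribosomal RNA of mitochondria, changed by 0.66 ± 0.13 (SE, adjusted p = 0.000955). The call of MT-ND6, an mRNA of complex I, came with the removal: its change was 0.75 and its unadjusted change 0.015. Its ratio was 1.19 and 1.16 in the controls but 0.49 in knockout 1 and 1.89 in knockout 2, on either side of them. MTCO1P12, a pseudogene copy of MT-CO1 in the nuclear genome whose reads may belong to it, changed by 1.08 ± 0.15 (SE, adjusted p = 3.29e-05).

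The rise lay in the nuclear fraction. Over the 15 RNAs the median log2 change was 0.72 in nuclear RNA, -0.14 in cytoplasmic RNA and 0.0073 in total RNA. Counts on the mitochondrial genome made up 2.06% and 2.42% of the nuclear libraries of controls 3 and 4 and 3.86% and 4.09% of those of the knockout. In the cytoplasmic libraries they were 8.43% and 7.98% against 8.52% and 8.97%. The IGF2BP2 knockout had 1.99% and 2.12% in its nuclear libraries, 1 within and 1 just below the control values. The part that mitochondria left with the nuclei have in this was not tested. Leaving out any 1 of the 4 cultures left 10 to 14 of the 15 called, with 10 without control 3. DESeq2 called 7, and 6 were called where a straight line was removed in place of the curve. The median change was 0.31 with the straight line, 0.82 where control 1 alone set the curve and 0.49 where control 2 alone did.

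**Figure D2:**
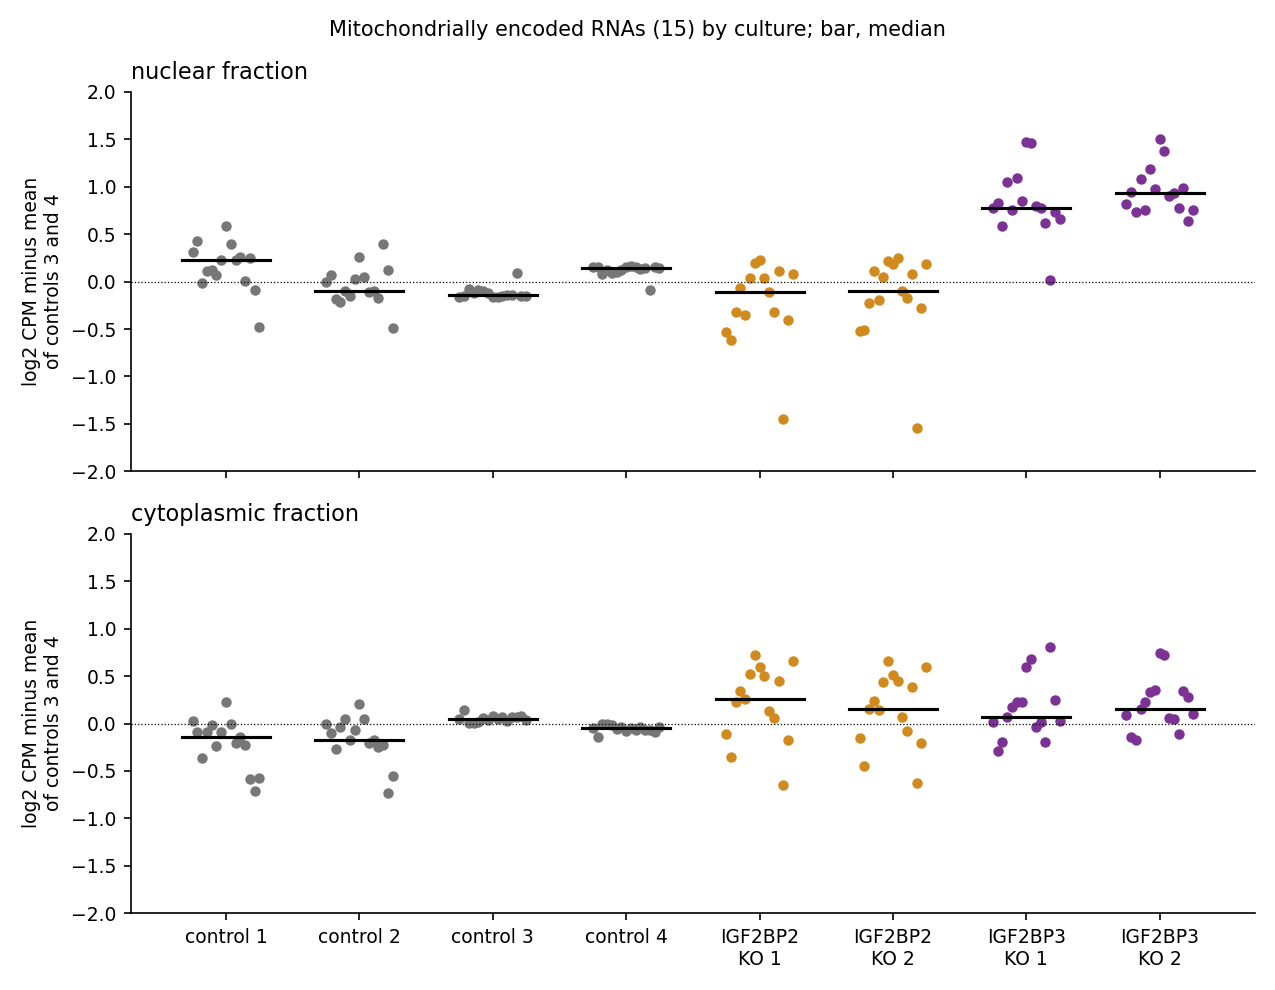
Log2 CPM of the 15 mitochondrially encoded RNAs in each culture, relative to the mean of controls 3 and 4, in the nuclear (top) and cytoplasmic (bottom) fraction; 1 point an RNA, bars are medians. In the nuclear fraction the medians of IGF2BP3 knockouts 1 and 2 lie above those of the 4 controls and of the IGF2BP2 knockout, and in the cytoplasmic fraction the points of all groups overlap.

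mRNAs of the ER and the secretory pathway were also more nuclear. Of 42 tested, 22 (52.4%, against 5.87% of all tested genes) were called higher and 0 lower, with a median change of 0.32 (unadjusted 0.35). Their median ratio was -0.18 and -0.11 in controls 3 and 4 and 0.23 and 0.27 in knockouts 1 and 2. HSPA5 (ENSG00000044574, chromosome 9, 125234853 to 125241330), the main chaperone of the ER lumen, measured 475 and 471 CPM in controls 3 and 4 and 976 and 1002 CPM in knockouts 1 and 2 in nuclear RNA. In cytoplasmic RNA it measured 327, 326, 500.1 and 476 CPM in the same order. It was higher in the knockout in both fractions, and more so in the nucleus, a ratio change of 0.72 ± 0.098 (SE, adjusted p = 3.29e-05). CALR, the calcium-binding chaperone calreticulin, had a ratio of -0.25 and -0.23 in the controls and 0.45 and 0.49 in the knockouts, a change of 0.68 ± 0.098 (SE, adjusted p = 6.87e-05). The disulfide isomerases PDIA3, PDIA4, PDIA6 and P4HB changed by 0.65, 0.58, 0.43 and 0.48. RPN1, RPN2, DDOST and STT3A, subunits of the oligosaccharyltransferase that attaches glycans, changed by 0.61, 0.56, 0.39 and 0.45, all called higher.

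The translocon genes of the list were not called, with values of 0.23 for SEC61A1, -0.11 for SEC61B and 0.0036 for SEC61G (adjusted p = 0.124, 0.558 and 0.989). Summed over the list, nuclear RNA held 9449 and 9622 CPM in controls 3 and 4 and 12920 and 13180 CPM in the knockout. Cytoplasmic RNA held 9080.5 and 8992 against 9834 and 9513 CPM. The part that ER membrane left with the nuclei has in this was not tested. With any 1 culture left out, 9 to 13 of the 42 were called higher and 0 lower, and DESeq2 called 13.

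Receptors, adhesion proteins and other integral membrane proteins, which are made on the ER, moved the same way. Of 40 tested, 16 (40.0%) were called higher and 0 lower, with a median change of 0.35 (unadjusted 0.34). IGF2R, the receptor that carries IGF2 and mannose-6-phosphate ligands to lysosomes, had a ratio of 0.60 and 0.60 in the controls and 0.99 and 1.17 in the knockouts, a change of 0.68 ± 0.10 (SE, adjusted p = 7.61e-05). PLXNB2, a receptor of semaphorins, had a ratio of 0.68 and 0.46 in the controls and 1.01 and 1.09 in the knockouts and changed by 0.67 ± 0.11 (SE, adjusted p = 0.000178). The knockout cultures lay above both controls for each gene. CDH2 (N-cadherin) changed by 0.65, FAT1 by 0.53 (unadjusted 0.29), the receptors NOTCH1, NOTCH2 and NOTCH3 by 0.48, 0.48 and 0.43, and INSR, the insulin receptor, by 0.44. The lysosomal membrane proteins LAMP1 and LAMP2 changed by 0.46 and 0.43. With 1 culture left out, 4 to 10 of the 40 were called, and DESeq2 called 4.

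Most of a list of lncRNAs described elsewhere as nuclear-retained moved toward the cytoplasm. Of 9 listed, 7 were tested and 6 were called lower (4.45% of all tested genes were), with a median change of -0.35 (unadjusted -0.51). MALAT1 (ENSG00000251562, chromosome 11, 65497688 to 65506516), an abundant lncRNA of nuclear speckles, measured 104 and 112 CPM in controls 3 and 4 and 214 and 255 CPM in knockouts 1 and 2 in nuclear RNA. Its cytoplasmic level was 19.1, 20.6, 113 and 104 CPM in the same order. It was higher in the knockout in both fractions, and more so in the cytoplasm, and its log2 ratio was 2.27 and 2.30 in the controls and 0.88 and 1.23 in the knockouts. The unadjusted change was -1.23 and the change after removal -0.46 ± 0.12 (SE, adjusted p = 0.016). For NEAT1, the scaffold of paraspeckles, the cytoplasmic change was 2.13 and the nuclear change 1.65, and the ratio changed by -0.34 ± 0.11 (SE, adjusted p = 0.046), unadjusted -0.51. KCNQ1OT1, an antisense RNA that silences its imprinted domain, had a ratio of 2.58 and 2.52 in the controls and 0.46 and 1.19 in the knockouts and changed by -0.91 ± 0.23 (SE, adjusted p = 0.012), unadjusted -1.75. OIP5-AS1, though on the list, was not enriched in the nucleus here, with a ratio of -0.16 and -0.26 in the controls and -0.71 and -0.71 in the knockouts, and changed by -0.56 ± 0.10 (SE, adjusted p = 0.000677). TUG1 and JPX changed by -0.35 and -0.34. FTX was not called (0.042, adjusted p = 0.902). XIST, which coats the inactive X chromosome and is not on the list, had a ratio of 5.23 and 5.16 in the controls and 4.74 and 5.12 in the knockouts and was called higher, at 1.39, with an unadjusted -0.26. The calls of the list are near the threshold: with 1 culture left out, 0 to 5 of the 7 were called, the 0 without knockout 1. DESeq2 called 1, and 2 were called where control 2 alone set the curve.

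Other noncoding classes of the annotation shifted in the same direction. Of 484 lincRNA genes 45 were called lower and 4 higher, of 646 antisense RNA genes 48 and 4, of 134 processed transcripts 21 and 1, and of 65 sense intronic RNAs 4 and 0. The shares called lower were 9.30%, 7.43%, 15.7% and 6.15%, of which those of antisense and sense intronic RNAs lie near the 4.45% of all tested genes. With nothing removed, 77, 78, 38 and 11 were lower, against 8.28% of all genes. Their median changes were -0.24, -0.18, -0.24 and -0.26 (unadjusted -0.28, -0.20, -0.38 and -0.38). Protein-coding genes had a median of 0.025, with 848 of 12533 called higher and 497 lower. Host genes of small nucleolar RNAs, short spliced transcripts most of which encode no protein, had 6 of 25 called lower and 0 higher (9 and 0 with nothing removed), with a median of -0.29 (3 to 4 called with 1 culture left out). SNHG3 had a ratio of 0.15 and 0.10 in the controls and -0.53 and -0.65 in the knockouts, a change of -0.72 ± 0.10 (SE, adjusted p = 4.19e-05). GAS5 changed by -0.50 (unadjusted -0.86) and SNHG15 by -0.65. With 1 culture left out, 8 to 29 lincRNA and 12 to 37 antisense genes were called lower, fewest without knockout 1. Reads of antisense genes and of the genes they overlap may have been split, since the strand setting of the counting is not given in the sources used here.

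The knockout has 2 further cytoplasmic libraries, replicates 3 and 4 of batch 5, a batch with no control and no nuclear library. Against the cytoplasmic RNA of controls 3 and 4, the median lincRNA gene stood 0.42 and 0.38 higher on the log2 scale in knockouts 1 and 2, but at 0.0036 and -0.040 in knockouts 3 and 4. For antisense genes the 4 values were 0.40, 0.40, -0.014 and -0.054. Nuclear-retained lncRNAs summed to 519 and 524 CPM in the cytoplasm of controls 3 and 4, 1352 and 1327 in knockouts 1 and 2 and 741 and 685 in knockouts 3 and 4. The higher cytoplasmic level of noncoding RNA in knockouts 1 and 2 was thus not seen to the same size in the batch 5 libraries. Its relation to the separation of the fractions was not tested.

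**Figure D3:**
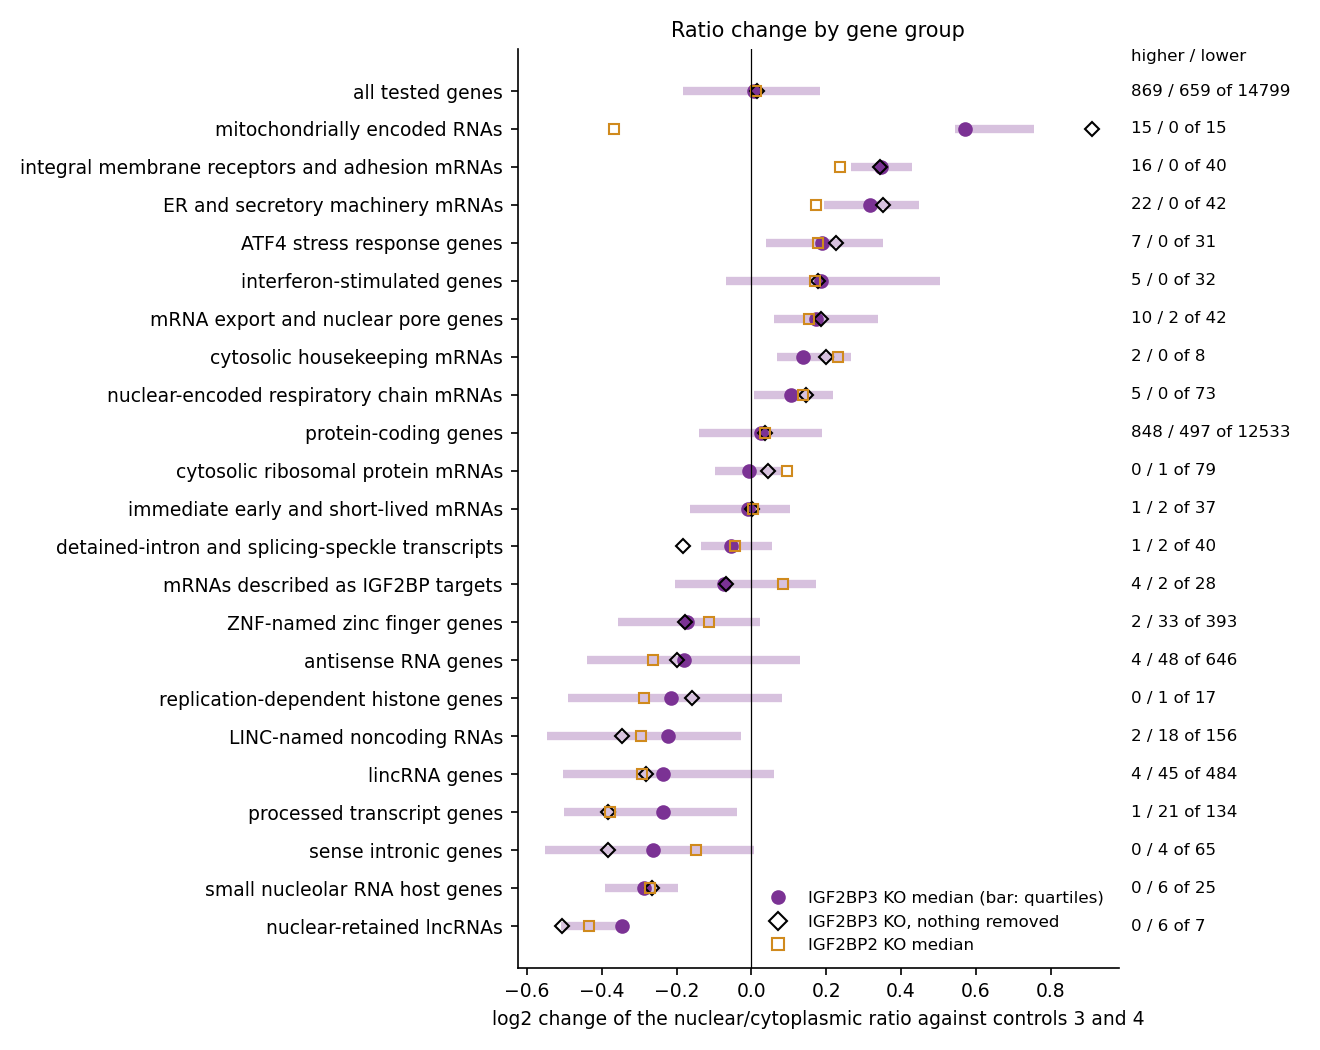
Median log2 change of the nuclear to cytoplasmic ratio by gene group in the IGF2BP3 knockout (filled circles, bars from the first to the third quartile), the same with nothing removed (diamonds) and in the IGF2BP2 knockout (squares), which shares its controls; numbers at the right give genes called higher and lower. Mitochondrially encoded RNAs, membrane protein and ER mRNAs lie to the right and the noncoding groups to the left of 0, and for mitochondrially encoded RNAs the square lies on the other side of 0.

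Among protein-coding genes, the change fell with the length of the 3' untranslated region (UTR), the part after the stop codon. Lengths are those of the longest coding transcript of each gene in GENCODE 29, which need not be the form these cells use. Genes with a 3' UTR of up to 300 bases had a median change of 0.10 (unadjusted 0.081), with 171 called higher and 21 lower of 1644. Between 1000 and 2000 bases the median was 0.031 (0.051), and above 4000 bases it was -0.11 (-0.082), with 58 higher and 181 lower of 1704. The shares called higher and lower were 10.4% and 1.28% in the shortest bin and 3.40% and 10.6% in the longest. Among all protein-coding genes tested they were 6.77% and 3.97%. In the single batch pairs the medians ran from 0.12 to -0.12 in batch 3 and from 0.078 to -0.098 in batch 4. Genes called higher had a median 3' UTR of 772 bases, genes called lower 3039 bases and genes not called 1353 bases. The steps between bins are small beside the spread between genes, whose quartiles in the longest bin were -0.28 and 0.065. With 1 culture left out, the median ran from 0.052 to 0.16 in the shortest and from -0.17 to -0.054 in the longest bin. The counts then ran from 36 to 110 higher in the shortest and from 23 to 128 lower in the longest.

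The 4 largest called falls were taken among genes with a symbol and a mean of at least 50 CPM in each fraction. Means were taken over controls 3 and 4 and knockouts 1 and 2. Each of the 4 had a 3' UTR above 4000 bases, as did 181 of the 497 protein-coding genes called lower. Other called falls had short 3' UTRs, with 193 bases in U2AF1L4 (-1.73) and 218 bases in DDX39B (-0.68). ATXN1L (ENSG00000224470, chromosome 16, 71845991 to 71885268), a transcriptional repressor related to ataxin-1, has a 3' UTR of 5526 bases. It measured 63.1 and 62.9 CPM in controls 3 and 4 and 41.3 and 44.6 CPM in knockouts 1 and 2 in nuclear RNA, the knockouts below both controls. In cytoplasmic RNA it measured 45.8, 48.0, 61.9 and 63.9 CPM in the same order, the knockouts above them. Its ratio was 0.30 and 0.26 in the controls and -0.62 and -0.58 in the knockouts, a change of -0.94 ± 0.11 (SE, adjusted p = 6.99e-06). SOCS4, a suppressor of cytokine signalling with a 3' UTR of 5127 bases, had a ratio of 0.46 and 0.39 in the controls and -0.47 and -0.30 in the knockouts, a change of -0.86 ± 0.11 (SE, adjusted p = 1.37e-05). UHMK1, a kinase with a U2AF homology motif (7063 bases), had a ratio of 0.35 and 0.30 in the controls and -0.56 and -0.37 in the knockouts and changed by -0.85 ± 0.11 (SE, adjusted p = 1.63e-05). YOD1, a deubiquitinase (5174 bases), had a ratio of 0.37 and 0.29 in the controls and -0.46 and -0.40 in the knockouts and changed by -0.82 ± 0.11 (SE, adjusted p = 1.67e-05). In controls 1 and 2 the ratio was -0.081 and -0.021 for ATXN1L and -0.23 and 0.31 for SOCS4, above both knockouts. It was -0.50 and -0.050 for UHMK1 and -0.48 and -0.081 for YOD1. Control 1 thus lay between the knockouts for UHMK1 and below both for YOD1. In total RNA the log2 differences of the 4 genes were -0.034, 0.12, -0.12 and -0.13, none of which passed the test. All 4 were called with any culture left out and by DESeq2.

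Coding length showed a trend only after the removal. Genes with a coding length above 4500 bases had a median change of 0.15 after removal and 0.026 before it, and 129 higher and 6 lower calls of 713 became 76 and 72. Genes of up to 500 bases had -0.0070 after and 0.038 before. Above 4500 bases, 18.1% were called higher and 0.842% lower after removal, against 6.77% and 3.97% of all protein-coding genes tested. Long coding genes had higher ratios in the controls, 0.49 in controls 1 and 2 against -0.31 for the shortest, which is the quantity the removal follows. The 3' UTR trend held before and after it.

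**Figure D4:**
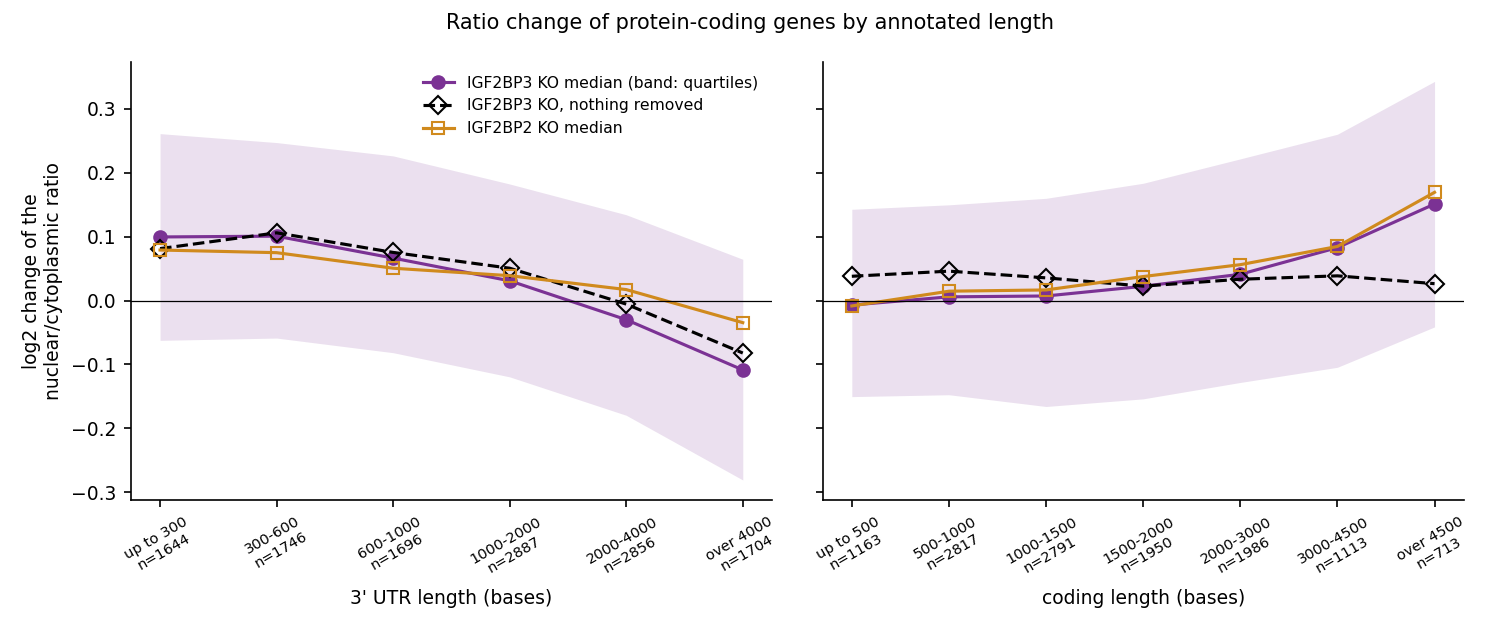
Median log2 change of the ratio of protein-coding genes by annotated 3' UTR length (left) and coding length (right) in the IGF2BP3 knockout (filled circles, band from the first to the third quartile), with nothing removed (diamonds) and in the IGF2BP2 knockout (squares); n is the number of genes. On the left both IGF2BP3 lines fall from about 0.1 to below 0, and on the right only the lines after removal rise.

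Among single mRNAs, TLN1 (ENSG00000137076, chromosome 9, 35696948 to 35732395), which encodes talin, the link between integrins and actin, had a large rise that did not rest on the removal. It measured 316 and 302 CPM in controls 3 and 4 and 393 and 407 CPM in knockouts 1 and 2 in nuclear RNA. Its cytoplasmic level was 259, 275, 174 and 179 CPM in the same order. Nuclear levels rose and cytoplasmic levels fell, with no overlap between the groups in either fraction. Its ratio was 0.13 and 0.00020 in the controls and 1.14 and 1.12 in the knockouts, an unadjusted change of 1.07 and a change of 1.05 ± 0.098 (SE, adjusted p = 2.37e-07). In total RNA its log2 difference was -0.10, not called (adjusted p = 0.128). DYNC1H1, the heavy chain of cytoplasmic dynein, had a ratio of 1.37 and 1.38 in the controls and 1.80 and 1.96 in the knockouts, unadjusted 0.51, and a change of 1.17 ± 0.10 (SE, adjusted p = 9.32e-08). FLNA, the actin crosslinker filamin A, had a ratio of 1.61 and 1.29 in the controls and 1.91 and 1.86 in the knockouts, unadjusted 0.43, and a change of 1.02 ± 0.11 (SE, adjusted p = 1.22e-06). In controls 1 and 2 the ratio was 0.32 and 0.22 for TLN1 and 1.49 and 1.72 for FLNA, below both knockouts. For DYNC1H1 it was 1.79 and 1.77 there, close to the 1.80 of knockout 1. All 3 were called with any culture left out and by DESeq2.

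Further genes were ranked among called genes with a symbol and a mean of at least 2 CPM in each fraction over the 4 cultures compared. They also needed at least 10 counts in each of the 8 libraries and both batch pairs moving the same way as the change. The coding genes with the largest rise outside those already named were PLA2G7, a secreted phospholipase (1.39 ± 0.34, adjusted p = 0.00896), and SRPX (1.14 ± 0.29, adjusted p = 0.0105). COL14A1, a collagen (1.09 ± 0.19, adjusted p = 0.000394), and UFSP1 (1.06 ± 0.33, adjusted p = 0.0402) came next. Of these COL14A1 was called in every leave-one-out fit, PLA2G7 and UFSP1 in none. For PLA2G7 the ratio was -0.59 and -0.67 in the controls and 0.81 and 0.72 in the knockouts, from 1.82 ± 0.0130 and 2.60 ± 0.126 CPM (SD, n = 2) in nucleus and cytoplasm of the controls. The lncRNAs XIST and LINC00342 were also called higher, at 1.39 and 1.10, but their unadjusted changes were -0.26 and -0.037. They have some of the highest nuclear ratios in the controls and lost less of it than the curve took away.

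The largest fall among genes meeting the same conditions was that of U2AF1L4 (ENSG00000161265, chromosome 19, 35742464 to 35745445), a paralog of the splicing factor U2AF1. It measured 12.1 and 12.3 CPM in controls 3 and 4 and 6.64 and 6.17 CPM in knockouts 1 and 2 in nuclear RNA. In cytoplasmic RNA it measured 1.91, 1.70, 4.31 and 5.17 CPM in the same order. Nuclear RNA fell and cytoplasmic RNA rose without overlap, the ratio was 2.45 and 2.66 in the controls and 0.57 and 0.19 in the knockouts, and the change was -1.73 ± 0.25 (SE, adjusted p = 7.61e-05). In total RNA its log2 difference was -0.13, not called (adjusted p = 0.427). Its ratio was 1.65 and 1.15 in controls 1 and 2, below controls 3 and 4 and above the knockouts. Its change in the IGF2BP2 knockout, which shares the controls, was -1.68, and the difference between the knockouts was -0.050 ± 0.21 (SE). Next came the noncoding ID2-AS1 (-1.62), CHD1-DT (-1.45) and ZNRD2-DT (-1.39), the pseudogene RPL13AP25 (-1.30) and the coding genes NDUFA4L2 (-1.36), ATP6V1C2, a subunit of the vacuolar proton pump (-1.29), and UNC13A, a synaptic vesicle protein (-1.24). These 7 had a mean below 4 CPM in both fractions of the controls, and 0 to 2 of the 4 leave-one-out fits called them.

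**Figure D5:**
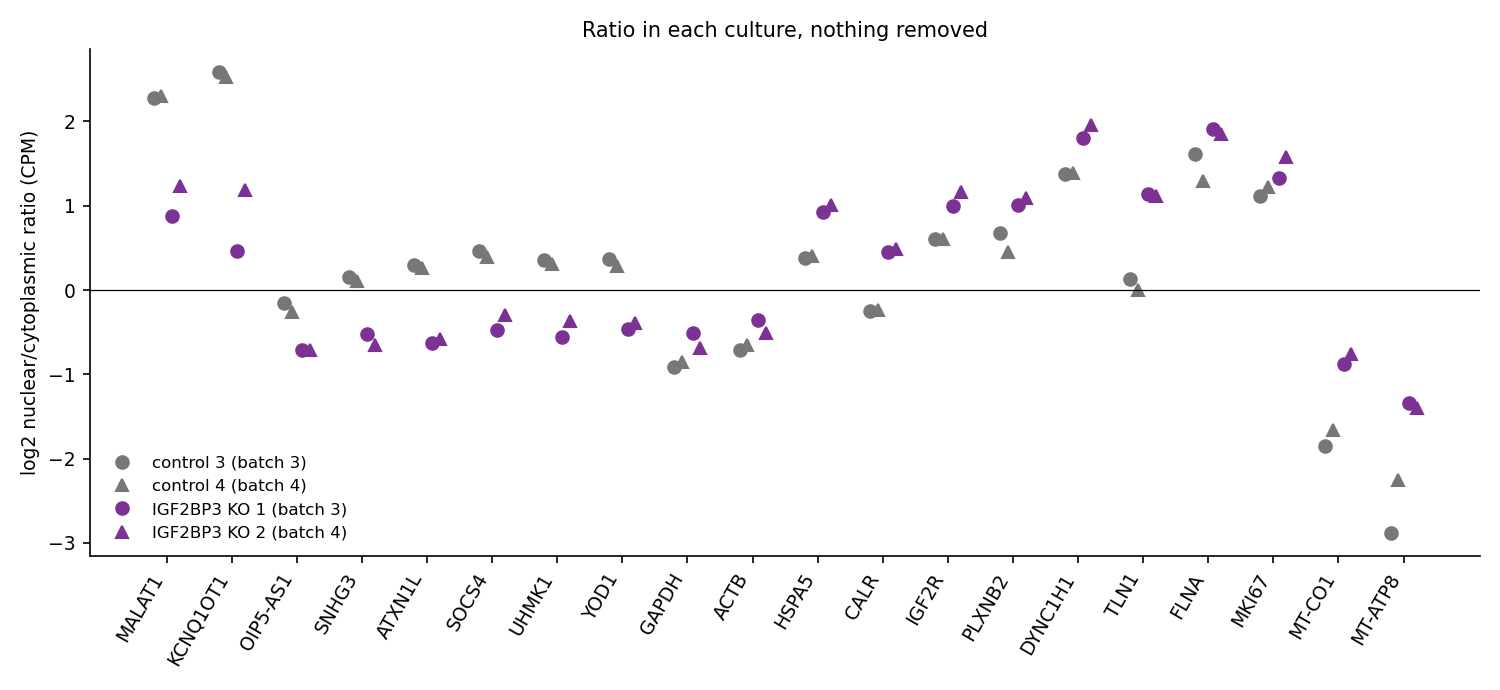
Log2 nuclear to cytoplasmic ratio (CPM, nothing removed) of 20 genes in controls 3 and 4 (grey) and IGF2BP3 knockouts 1 and 2 (purple); circles are batch 3, triangles batch 4. The knockout points lie below the controls from MALAT1 to YOD1 and above them from GAPDH to MT-ATP8, and the groups do not overlap for any of the 20.

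Genes of mRNA export and the nuclear pore had 10 of 42 called higher (23.8%, against 5.87% of all tested genes) and 2 lower (4.76%, near the 4.45% of all genes), with a median of 0.17. With nothing removed, 7 were higher and 1 lower. TPR, the nuclear basket protein of the pore, had a ratio of 1.26 and 1.26 in the controls and 1.46 and 1.61 in the knockouts, a change of 0.65 ± 0.11 (SE, adjusted p = 0.000258), unadjusted 0.28. The scaffold nucleoporin NUP160 changed by 0.60 ± 0.10 (SE, adjusted p = 0.000408), and NUP133, NUP205, NUP93 and NUP188 by 0.55, 0.52, 0.47 and 0.46. DDX39B, the helicase that loads export factors on mRNA, went the other way. Its ratio was 1.76 and 1.53 in the controls and 0.42 and 0.39 in the knockouts, a change of -0.68 ± 0.099 (SE, adjusted p = 7.21e-05), unadjusted -1.24, with nuclear RNA at -0.94 and cytoplasmic RNA at 0.27. NCBP3, a cap-binding protein, changed by -0.33 ± 0.10 (SE, adjusted p = 0.0415) and lost its call with any culture left out. Of the list, 3 to 7 were then called higher and 1 lower.

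Some mRNAs described elsewhere as bound or stabilized by IGF2BP proteins were called, in both directions. Of 28 tested, 4 were called higher (14.3%, against 5.87% of all tested genes) and 2 lower (7.14%, against 4.45%), with a median of -0.074. With nothing removed, 1 was higher and 1 lower. MKI67, the proliferation marker, had a ratio of 1.11 and 1.23 in the controls and 1.32 and 1.57 in the knockouts and changed by 0.68 ± 0.11 (SE, adjusted p = 0.00018), unadjusted 0.28. CTNNB1 (beta-catenin) changed by 0.44, unadjusted 0.089, and FSCN1 (fascin) by 0.34. LAMB2, a laminin chain, changed by 0.58 ± 0.12 (SE, adjusted p = 0.00222), with an unadjusted value of -0.096. MYC changed by -0.32 ± 0.10 (SE, adjusted p = 0.0405), while its RNA changed by -2.04 in the nucleus, -1.82 in the cytoplasm and -1.89 in total RNA. VEGFA changed by -0.38 ± 0.10 (SE, adjusted p = 0.0173). Neither MYC nor VEGFA was called with any culture left out, and 2 to 3 of the list were then called higher and 0 lower. ACTB, at 0.19, and CCND1, at -0.054, were not called.

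Of 79 cytosolic ribosomal protein mRNAs tested, 0 were called higher and 1 lower, with a median of -0.0065 and quartiles of -0.097 and 0.085. With single cultures left out the median ran from -0.12 to 0.098. The 1 call was RPL36A (-0.90 ± 0.14, adjusted p = 0.000129), which has near-identical copies elsewhere in the genome. Of 8 cytosolic housekeeping mRNAs, TUBA1B (0.38) and PGK1 (0.37) were called higher, and GAPDH, with a ratio of -0.91 and -0.85 in the controls and -0.50 and -0.68 in the knockouts, was not called (0.23, adjusted p = 0.206). Nuclear-encoded subunits of the respiratory chain had 5 of 73 called higher and 0 lower (median 0.11), and the 6.85% called higher is near the 5.87% of all tested genes. They included COX6A1 (0.73 ± 0.11, adjusted p = 0.000112, unadjusted 0.063) and SDHA of complex II (0.48, unadjusted 0.24), and 1 to 8 of the list were called higher with 1 culture left out.

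Detained-intron and splicing-speckle transcripts had 1 of 40 called higher and 2 lower (5%, near the 4.45% of all tested genes). With nothing removed, 15 of the 40 were called lower and 1 higher, against 8.28% of all genes lower. Their median of -0.054 (unadjusted -0.18) ran from -0.14 to 0.012 with single cultures left out. SNRNP70, a protein of the U1 snRNP, changed by 0.47, and the kinase CLK4 and the splicing factor SRSF6, whose genes hold introns that are often kept in the nucleus, by -0.48 (unadjusted -0.83) and -0.36. In controls 1 and 2 the ratio of CLK4 was 1.00 and 1.16, near the 1.14 and 1.02 of the knockouts. In controls 3 and 4 it was 1.94 and 1.87. SRSF6 had 0.47 and 0.70, 0.49 and 0.46, and 0.97 and 0.93 in the same order. SNRNP70 had 0.48 and 0.35, 0.87 and 0.75, and 0.45 and 0.30. The list's median ratio was 0.55 and 0.75, 0.68 and 0.78, and 0.94 and 0.92. Zinc finger genes with ZNF names had 33 of 393 called lower (8.40%, against 4.45% of all tested genes) and 2 higher, and 63 lower and 4 higher with nothing removed, with a median of -0.17 (unadjusted -0.18), and 9 to 31 lower with 1 culture left out. ZNF8 (7272 bases of 3' UTR) had a ratio of 0.68 and 0.95 in the controls and -0.39 and -0.24 in the knockouts, a change of -1.03 ± 0.16 (SE, adjusted p = 0.000134). ZNF471 changed by -1.16, and ZNF622 and ZNF503 went the other way, at 0.53 and 0.32. Noncoding genes with LINC names had 18 of 156 lower (11.5%) and 2 higher, and 29 and 0 with nothing removed (3 to 13 lower with 1 culture left out). LINC01424 and LINC01560 changed by -1.01 and -1.04, and LINC02593 by 0.56, with an unadjusted -0.17.

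ATF4 target genes, induced by amino acid and ER stress, had 7 of 31 called higher (22.6%, against 5.87% of all tested genes) and 0 lower (median 0.19), and 3 to 5 higher with 1 culture left out. ASNS, which makes asparagine, changed by 0.92 ± 0.22 (SE, adjusted p = 0.00746), but by -0.092 before removal. VLDLR, a lipoprotein receptor, changed by 0.68 (unadjusted 0.43), SLC3A2 and SLC7A5, the chains of an amino acid transporter, by 0.65 and 0.32, and the tRNA synthetase AARS1 by 0.65. Interferon-stimulated genes had 5 of 32 called higher (15.6%) and 0 lower (median 0.19), and 0 to 3 higher with 1 culture left out. LGALS3BP, a secreted glycoprotein, had a ratio of 0.12 and 0.12 in the controls and 0.69 and 0.68 in the knockouts and changed by 0.59 ± 0.10 (SE, adjusted p = 0.000324). IFI6, an interferon-induced protein, changed by 0.66 and TAP1, the peptide transporter of the ER, by 0.54. Immediate early and short-lived mRNAs had 1 of 37 higher (JUNB, 0.55) and 2 lower (KLF6, -0.39, and MYC), near or below the shares of all genes, and 3 higher and 2 lower with nothing removed. Replication-dependent histone genes had 1 of 17 lower (H3C6, -0.73) and 0 higher; their mRNAs lack poly(A) tails, so these libraries see only the part that is tailed. IFI6, KLF6, H3C6, ZNF503 and SRSF6 were called in none of the leave-one-out fits.

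The IGF2BP2 knockout, fractionated in the same batches, was compared directly, with its own curve removed. It shares the controls, so only the contrast between the knockouts is a test. Against the controls, 686 genes (4.64%) were called higher and 724 (4.89%) lower in the IGF2BP2 knockout. Between the knockouts, 27 genes (0.182%) were higher in the IGF2BP3 knockout and 7 (0.0473%) lower, of 1442 with an unadjusted p below 0.05. Of the 27, 14 were mitochondrially encoded RNAs of the list of 15. Their median ratio, with nothing removed, was -2.55 and -2.38 in the IGF2BP2 knockout cultures, below -1.34 and -1.39 in the IGF2BP3 knockout. MT-CO1 changed by -0.59 in the IGF2BP2 knockout, a difference of 1.41 ± 0.13 (SE, adjusted p = 1.36e-07). MT-RNR2 differed by 1.32 ± 0.13 and MTCO1P12 by 1.84 ± 0.15. The exception was MT-ND6, the 1 mRNA read from the light strand and called in the IGF2BP3 knockout through the removal, which differed by 0.44 (adjusted p = 0.477).

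Genes of other kinds also differed between the knockouts. TLN1 changed by 0.52 in the IGF2BP2 knockout, 0.53 ± 0.098 less than in the IGF2BP3 knockout (adjusted p = 0.00485). NEAT1 fell further in the IGF2BP2 knockout, at -0.997, a difference of 0.66 ± 0.11 (adjusted p = 0.000806). NAPRT, an enzyme of NAD synthesis, changed by 1.63 in the IGF2BP2 knockout and stood at 0.13, not called, in the IGF2BP3 knockout, a difference of -1.50 ± 0.26. The IGF2BP2 knockout cultures disagreed for NAPRT. With nothing removed, the ratio was 1.75 in knockout 1, near the 1.70 of control 3. It was 3.09 in knockout 2, against 1.29 in control 4. SPTBN1, a spectrin, and ANLN, anillin of the cleavage furrow, differed by -0.84 and -0.67, and their unadjusted values in the IGF2BP3 knockout were -0.73 and -0.85. No gene of the ER, receptor or ribosomal protein lists was called in this contrast. ER mRNAs had a median of 0.17 in the IGF2BP2 knockout and nuclear-retained lncRNAs -0.43. Genes with a 3' UTR of up to 300 bases had 0.079 and those above 4000 bases -0.035, a fall with length there too. These values of the IGF2BP2 knockout share the controls with those given above. ATXN1L, SOCS4, UHMK1 and YOD1 changed by -0.91, -0.90, -0.79 and -0.91 there. DYNC1H1 changed by 1.03, and its difference between the knockouts, 0.14 ± 0.10, did not pass the test. With nothing removed, its ratio was 1.45 and 1.36 in IGF2BP2 knockouts 1 and 2, around the 1.37 and 1.38 of controls 3 and 4. The 1.03 thus came with the removal.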

How the data were processed

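Tables of raw counts per Ensembl gene identifier were deposited by the authors, 1 table each for nuclear, cytoplasmic and total RNA; reads were made from stranded poly(A) libraries, per the labels' protocols. STAR, featureCounts, DESeq2 1.44.0 and GRCh38 are named in the submitters' processing notes, and the strand setting is not given in the sources used here. FPKM tables of the same libraries were not used. IGF2BP1 knockout libraries were left out because the counts of a nuclear and a total RNA library were identical (0 of 62703 identifiers differed).

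Counts were analysed with edgeR 4.0.16 (glmQLFit, glmQLFTest, TMM scaling) in R 4.3.3 on 12 libraries: both fractions of controls 3 and 4, IGF2BP2 knockouts 1 and 2 and IGF2BP3 knockouts 1 and 2. Terms were culture, fraction, batch by fraction and knockout by fraction, with 2 residual degrees of freedom for samples. A loess curve (span 0.5, degree 1) of the unadjusted knockout change on the log2 ratio of controls 1 and 2 entered as an offset in the nuclear knockout libraries. Tested were 14799 of 18902 genes that passed filterByExpr, those with a mean of at least 10 counts in both fractions of each group; 4103 were not. Fractions and total RNA were also fitted on their own, with batch. Pairing comes from the batch labels; the deviations of same-batch cultures correlated at 0.00815 across genes.

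Named genes were IGF2BP1 to IGF2BP3, MALAT1, NEAT1, GAPDH and ACTB, the 8 largest called changes in each direction with a mean of at least 2 CPM in each fraction over the 4 cultures, and the 4 of at least 50 CPM, up to 2 per list and direction, and the 3 largest differences from the IGF2BP2 knockout in each direction. All ranked genes had a symbol, a mean of at least 2 CPM in each fraction and at least 10 counts in each of the 8 libraries. For the ranked changes, both batch pairs also had to move the same way as the change. Other genes named from the lists were chosen after their values were seen. The comparison, its gene lists and the length bins were chosen with earlier results of these data known. Gene types, positions and lengths are from GENCODE 29. The fit was also run on counts simulated from the fitted model, with the removed curve taken as true. Such counts cannot show errors from a misfitted curve or from differences in clone or fractionation. A blood cell marker of the lists is not reported here. Alternatives covered the removed curve, scaling, filters, libraries, the batch pairing, DESeq2 1.42.0 and each culture left out.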

Additional observations from a re-analysis of the deposited data

Results flagged for a closer look

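Differences between the IGF2BP3 and IGF2BP2 knockouts in how far the ratio of nuclear to cytoplasmic RNA changed (IGF2BP3 minus IGF2BP2, log2) passed edgeR's test for 9 named genes. They were 1.84 for MTCO1P12, 1.41 for MT-CO1, 1.32 for MT-RNR2, 1.10 for MT-ATP8, 0.66 for NEAT1 and 0.53 for TLN1, and -1.50 for NAPRT, -0.84 for SPTBN1 and -0.67 for ANLN. For NAPRT the IGF2BP2 knockout cultures disagreed, with ratios of 1.75 and 3.09 before removal. For SPTBN1 and ANLN part of the difference came with the removal.

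In 91 sets of 4 control cultures, 3 had a culture far from the other 3; chance gives about 1 in 20. The log2 ratio of KCNQ1OT1 was 2.03 in control 1, that of KLF6 was 0.17 in control 3, and that of MT-RNR2 was -1.57 in control 3. Control 3 is part of the comparison. With each of the 4 cultures left out, the change of MT-RNR2 lay between 0.57 and 0.73.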

How the results depend on the processing

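With no part removed, 1226 genes were lower, and 298 were higher and 82 lower than in the IGF2BP2 knockout; XIST (-0.26), LINC00342 (-0.037), LAMB2 (-0.096), ASNS (-0.092), LINC02593 (-0.17), SPTBN1 (-0.73) and ANLN (-0.85) turned negative. Fitted on the 8 libraries alone, 1601 genes were higher and 1233 lower. Without the replicate block (batch pairing), 1127 were higher and 877 lower, and the contrast with IGF2BP2 gave 58 and 18. That contrast gave 41 higher with RLE scaling, 47 higher and 14 lower with upper quartile scaling, and 12 higher without mitochondrially encoded genes, an alternative added after seeing the data. DESeq2 called 262 higher and 97 lower, 14 higher in the contrast, 3642 genes higher in total RNA and 3659 genes higher in cytoplasmic RNA. With 1 culture left out, 216 to 434 genes were higher and 116 to 410 lower, and in the contrast 26 to 59 and 6 to 21; the lone culture left is assumed to vary like the other groups. The median of detained-intron transcripts then ran from -0.14 to 0.012, including 0.0039 without knockout 1, and that of the IGF2BP family from -0.025 to 0.14. The cause was not tested.

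Of 65 named genes called, 26 stayed called with each culture left out, 11 in none, and 32 in DESeq2. The design has 2 pairs from 1 clone and 2 residual degrees of freedom, the smallest rise called was 0.30, and a change shared by both knockout cultures through their fractionation cannot be told apart from one of the genotype.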
